A study of Sus scrofa with 16 samples.

Results

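The genes PEG10, SGCE, NDN, NNAT, NAP1L5 and TRIM4 are 6 of the 28232 genes in the deposited expression table of porcine embryonic stem cells on their way to midbrain dopaminergic neurons. They were chosen for being counted in every library of the IVF cells and at or near 0 in the PA cells, so the difference between the lines is given here as a description and was not tested. The IVF cells were the line IVF_1_ pESC_FIW, from an in vitro fertilized blastocyst, and the PA cells were the line PA_3_ pESC_FIW, from a parthenogenetically activated blastocyst. Both lines went through the same floor-plate protocol, with dual SMAD inhibition, SHH, CHIR99021 and FGF8, and were collected undifferentiated at day 0 and at days 16, 28 and 45. Before day 16 they had already been replated on Matrigel, with FGF8, BDNF and ascorbic acid. From day 16 on they were replated again, on poly-L-ornithine, laminin and fibronectin, with BDNF, GDNF, ascorbic acid, db-cAMP and DAPT. Time and culture conditions thus changed together and cannot be told apart. Each line and day had 2 libraries, called biological duplicates by the submitters with no word on whether they were separate cultures, so p-values measure the spread between these samples. Since each origin was represented by 1 line, the origin of the embryo and the line itself cannot be told apart.

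Genomic imprinting is the expression of a gene from the copy inherited from 1 parent while the copy from the other parent is silent, and the silencing is carried by DNA methylation laid down in the egg or the sperm. A parthenogenetic embryo develops from an egg without a sperm and holds only maternal copies, so genes read from the paternal copy have no active template. PEG10, SGCE, NDN, NNAT and NAP1L5 are known as paternally expressed in mouse and human. TRIM4 stood in the chosen group by its counts and by the label of the group, and it was in neither list of imprinted genes used below.

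Each of the 16 libraries held 39247693 to 52165867 counts over 17727 to 19702 genes. Levels are in CPM, read counts divided by the size of the library, after scaling by the trimmed mean of M values (TMM), as mean ± SD of 2 libraries. The level of 3 counts in 1 library, taken as the limit of detection, was 0.0594 to 0.0815 CPM. Summed pluripotency markers were 2218 to 2290 CPM in IVF cells and 2452 to 2526 CPM in PA cells at day 0, and 73.0 to 223 CPM over both lines afterwards. Summed pan-neuronal markers rose from 412 to 489 CPM at day 0 to 4252 to 4284 CPM at day 16 in IVF cells, and from 278 to 285 CPM to 1895 to 1911 CPM in PA cells. At day 28 they were 3200 to 4348 CPM in IVF cells and 6564 to 6685 CPM in PA cells. At day 45 they were 2020 to 2565 CPM in IVF cells and 2540 to 2850 CPM in PA cells. Summed astrocyte markers in IVF cells were 286 to 307 CPM at day 28 and 903 to 904 CPM at day 45. Summed leptomeningeal and fibroblast markers in IVF cells were 671 to 819 CPM and 1007 to 1435 CPM on these days. In bulk RNA, fewer cells of a type and less RNA per cell cannot be told apart, and the part of cell composition in the changes below was not tested.

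All 6 genes were separated by line in every library. Summed over the 6, the level was 1510 to 5442 CPM in the IVF libraries and 0 to 2.67 CPM in the PA libraries. NDN and TRIM4 had no count in any of the 8 PA libraries. SGCE was at 0 in 2 PA libraries, NNAT in 2, NAP1L5 in 4 and PEG10 in 1. The largest mean level in PA cells, as a share of the IVF level on the same day, was 0.693%, of NAP1L5 at day 45.

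**Figure D1:**
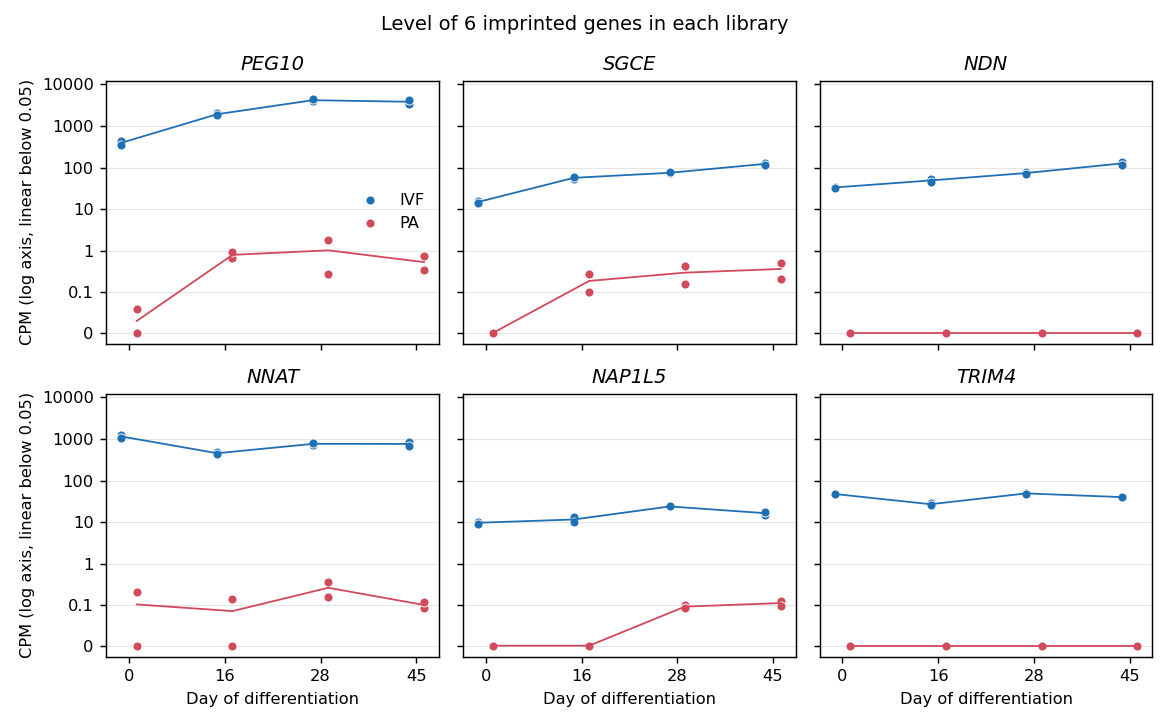
Level of the 6 genes in each library, in CPM on an axis that is logarithmic above 0.05 and linear below, against the day of differentiation. Points are the 2 libraries of each line and day (blue IVF, red PA) and lines join their means. The IVF libraries sat between 9.19 and 4411 CPM and the PA libraries between 0 and 1.77 CPM.

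SGCE and PEG10 are neighbours on chromosome 9 (build Sscrofa11.1) and point away from each other. SGCE, which encodes epsilon-sarcoglycan of the dystrophin-associated complex, lies on the minus strand at chr9:74402714-74473904 with 13 exons. PEG10, a gag-pol gene derived from a retrotransposon and needed for the mouse placenta, lies on the plus strand at chr9:74474121-74486983 with 2 exon blocks. The 216 bases between their starts are the only sequence that separates the pair, and they are shown because the genes on both sides were at or near 0 in the PA line. Capitals mark CpG dinucleotides, the site of DNA methylation, and 18 of them lie here.
SGCE-PEG10 gap, chr9:74473905-74474120, plus strand: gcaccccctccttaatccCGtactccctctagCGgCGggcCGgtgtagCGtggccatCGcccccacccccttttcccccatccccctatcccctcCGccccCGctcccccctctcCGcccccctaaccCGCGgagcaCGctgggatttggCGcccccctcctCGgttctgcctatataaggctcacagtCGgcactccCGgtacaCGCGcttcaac

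PEG10 was the gene with the highest mean level among the 6 at days 16, 28 and 45, behind NNAT at day 0. The IVF counts were 16434 and 12909 at day 0, 95647 and 84539 at day 16, 197324 and 216420 at day 28, and 154612 and 212435 at day 45. The PA counts were 0 and 2, 29 and 45, 14 and 81, and 34 and 17 on the same days. No PA library came near an IVF library, and the highest PA count, 81, was that of replicate 2 at day 28, where NNAT was also highest in PA cells.

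The mean PEG10 level in IVF cells was 394 ± 74.7, 1914 ± 162, 4159 ± 356 and 3811 ± 620 CPM on the 4 days in turn. The PA level was 0.0417% of it at day 16, 0.0246% at day 28 and 0.0140% at day 45. At day 0 the 2 counts in PA cells gave 0.00537%, with a 95% counting interval of 0.000677% to 0.0202%. Over all days 222 counts stood in PA cells against 990320 in IVF cells. Intervals and bounds here cover counting error only.

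SGCE followed PEG10 at a lower level. The IVF counts were 583 and 527 at day 0, 2530 and 2803 at day 16, 3656 and 3788 at day 28, and 5904 and 5838 at day 45, or 14.9 ± 1.36, 56.7 ± 4.26, 74.8 ± 3.40 and 123 ± 8.50 CPM. The PA counts were 0 and 0, 12 and 5, 8 and 20, and 10 and 26. At day 0 SGCE was at least 451-fold lower in PA cells, computed with 3 counts over the group, and it was at 0.333%, 0.399% and 0.298% of the IVF level on the later days. Like PEG10, it was thus detected in PA cells at days 16, 28 and 45 and always below 1% of IVF.

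The pair kept unequal levels. In TPM, which also corrects for transcript length, PEG10 was 6.21 ± 0.678 times SGCE at day 0 in IVF cells, 8.21 ± 1.45 times at day 16, 13.6 ± 0.827 times at day 28 and 7.59 ± 1.73 times at day 45 (n = 2 libraries each). The ratio at day 28 was above that of each other IVF library. Their log2 levels correlated with r = 0.958 over the 8 IVF libraries, as a description, since these libraries share the course of days.

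NDN encodes necdin, a protein of the MAGE family found in neurons that have left the cell cycle, and in human it lies in the region lost in Prader-Willi syndrome. The annotation holds it as 1 exon of 978 bases, all coding, at chr1:142412688-142413665 on the plus strand. The IVF counts were 1262 and 1220 at day 0, 2472 and 2139 at day 16, 3926 and 3437 at day 28, and 6362 and 5648 at day 45, and each PA count was 0. The IVF level grew from 33.3 ± 1.47 CPM at day 0 through 49.0 ± 4.87 and 73.9 ± 5.44 to 126 ± 18.3 at day 45. NDN was at least 1009-fold, 1501-fold, 2365-fold and 4048-fold lower in PA cells at days 0, 16, 28 and 45.

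NNAT encodes neuronatin, a small membrane protein related to phospholamban, and NAP1L5 encodes a member of the nucleosome assembly protein family. Both sit inside a larger gene that runs the opposite way, without sharing an exon base with it. NNAT lies at chr17:40625990-40629523 inside BLCAP, and NAP1L5 at chr8:130364566-130365464 inside HERC3. The 250 bases before each start are shown because the inner genes were at or near 0 in PA cells inside host genes that were counted in both lines. Capitals again mark CpG, 11 in the first and 33 in the second.
NNAT upstream, chr17:40625740-40625989, plus strand: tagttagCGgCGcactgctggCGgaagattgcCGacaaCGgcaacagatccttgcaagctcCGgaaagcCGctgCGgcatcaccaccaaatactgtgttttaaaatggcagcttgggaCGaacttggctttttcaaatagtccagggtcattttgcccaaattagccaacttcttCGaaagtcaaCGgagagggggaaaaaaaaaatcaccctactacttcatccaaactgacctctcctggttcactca
NAP1L5 upstream, chr8:130364316-130364565, plus strand: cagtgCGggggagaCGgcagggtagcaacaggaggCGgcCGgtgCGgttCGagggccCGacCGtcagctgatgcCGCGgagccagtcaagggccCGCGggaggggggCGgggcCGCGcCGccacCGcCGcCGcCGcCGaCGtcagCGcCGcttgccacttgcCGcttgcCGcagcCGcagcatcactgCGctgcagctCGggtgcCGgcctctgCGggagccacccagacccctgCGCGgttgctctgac

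NNAT was the member with the highest level at day 0, and its level was lower on each later day. The IVF counts were 45301 and 40378 at day 0, 22424 and 20371 at day 16, 36075 and 39817 at day 28, and 38186 and 34399 at day 45. The PA counts were 0 and 10, 0 and 7, 8 and 17, and 4 and 6. Its IVF level was 1149 ± 116, 455 ± 29.6, 763 ± 68.7 and 760 ± 102 CPM, of which PA cells had 0.00920%, 0.0161%, 0.0348% and 0.0135%.

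NAP1L5 was the least counted of the genes. The IVF counts were 375 and 348, 616 and 478, 1208 and 1171, and 687 and 897 at days 0, 16, 28 and 45, or 9.69 ± 0.707, 11.6 ± 2.04, 23.9 ± 0.0394 and 16.5 ± 2.09 CPM. All 4 PA libraries of days 0 and 16 were at 0, which bounds the difference at 294-fold and 356-fold lower or more. At day 28 the PA counts were 5 and 4 and at day 45 they were 6 and 5, or 0.391% and 0.693% of IVF. NAP1L5 was therefore detected in PA cells at days 28 and 45 and not at days 0 and 16.

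TRIM4 encodes a ubiquitin ligase of the tripartite motif family that acts in RIG-I signalling in human cells. It lies on the minus strand at chr3:7815188-7837587. The IVF counts were 1771 and 1783, 1345 and 1201, 2512 and 2387, and 1825 and 2015, or 47.6 ± 0.731, 27.0 ± 2.09, 49.2 ± 0.775 and 40.1 ± 0.348 CPM, and each PA count was 0. The bounds were at least 1445-fold, 829-fold, 1573-fold and 1294-fold lower in PA cells. Its start faces that of LOC110259868, a long non-coding RNA on the plus strand, across 66 bases with 10 CpG, shown because the genes on both sides had no PA count.
TRIM4-LOC110259868 gap, chr3:7837588-7837653, plus strand: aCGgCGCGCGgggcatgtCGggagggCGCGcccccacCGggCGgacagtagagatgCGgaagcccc

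By TPM the order of the genes in IVF cells changed once. At day 0 NNAT led with 1579 ± 163 TPM, rank 104 in the table, ahead of PEG10 with 118 ± 22.1 (rank 1199), NDN with 66.5 ± 2.81, NAP1L5 with 21.1 ± 1.47, SGCE with 18.9 ± 1.50 and TRIM4 with 12.2 ± 0.162. At day 28 PEG10 stood first with 1687 ± 176 TPM (rank 52) and NNAT followed with 1235 ± 136 (rank 86). The replicate ranges of these genes overlapped at days 16 and 45 and not at days 0 and 28. SGCE passed NAP1L5 from day 16 on, with 82.7 ± 6.75 against 29.9 ± 5.56 TPM, and TRIM4 was lowest on each day.

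Changes between days were tested within IVF cells. The choice of the genes had required counts in every IVF library but had not used the changes between days. PEG10 and SGCE rose and NNAT fell between days 0 and 16. From day 16 to day 28 PEG10 rose again and NAP1L5 rose. From day 28 to day 45 none of the 6 passed both limits. Calls required both a change of at least 2-fold and, over the 18528 genes tested by edgeR's quasi-likelihood test, a p below 0.05 after Benjamini-Hochberg adjustment.

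At day 16 against day 0, 3 of 6 were called, 2 of them higher and 1 lower, where 34.2% of all genes were called, 20.2% higher and 14.0% lower. PEG10 rose with a log2 fold change of 2.28 ± 0.32 (SE, adjusted p = 2.22e-05) and SGCE with 1.93 ± 0.21 (adjusted p = 4.2e-06), while NNAT fell by 1.34 ± 0.22 on the log2 scale (adjusted p = 1.22e-04). In each of these the 2 groups of libraries did not overlap. NDN (0.56, adjusted p = 0.00533) and TRIM4 (-0.82, adjusted p = 2.22e-04) passed the p limit but changed less than 2-fold, and NAP1L5 had 0.26 with adjusted p = 0.214. With total counts in place of TMM the median of all genes moved by 0.12 on the log2 scale in this comparison and no call of the 6 changed.

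At day 28 against day 16, 2 of 6 were called, both higher, against 21.7% of all genes (10.1% higher). PEG10 rose by 1.12 ± 0.30 (adjusted p = 0.00763) and NAP1L5 by 1.04 ± 0.17 (adjusted p = 3.6e-04), both close to the 2-fold limit. The PEG10 call was lost with DESeq2 (1.16, adjusted p = 0.0639), without replicate 2 of IVF day 28 (1.02, adjusted p = 0.0544) and without replicate 2 of IVF day 16 (1.04, adjusted p = 0.0676). NAP1L5 fell under 2-fold without replicate 2 of IVF day 16 (0.87). NDN (0.59), NNAT (0.75) and TRIM4 (0.86) had adjusted p = 0.00503, 0.0122 and 2.44e-04 at less than 2-fold, and SGCE had 0.40 with adjusted p = 0.124.

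At day 45 against day 28, 0 of 6 were called by edgeR's quasi-likelihood test or by DESeq2, against 16.7% of all genes by edgeR (10.1% higher and 6.61% lower), and 4 had an unadjusted p below 0.05. SGCE (0.71, adjusted p = 0.0124), NDN (0.77, adjusted p = 0.00138) and NAP1L5 (-0.54, adjusted p = 0.0244) moved by less than 2-fold. PEG10 had -0.13 ± 0.30 and NNAT less than 0.01 in size. Over the whole course, day 45 against day 0, 3 of 6 were called, each higher, against 49.0% of all genes (27.5% higher). PEG10 rose by 3.27 ± 0.33 (adjusted p = 4.97e-07), SGCE by 3.04 ± 0.22 (adjusted p = 3.37e-08) and NDN by 1.92 ± 0.14 (adjusted p = 4.99e-07). Set against the shares of all genes, these counts differ by about 1 gene of the 6 or less.

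**Figure D2:**
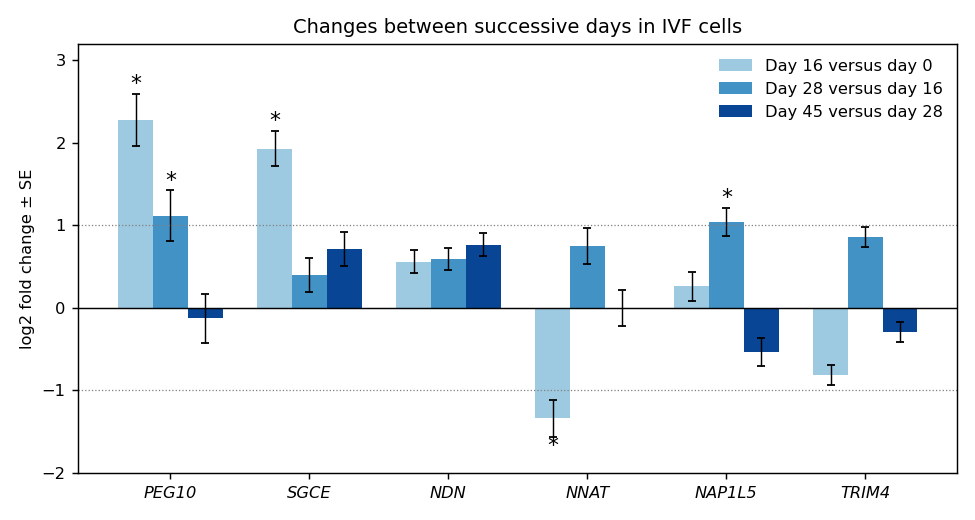
Log2 fold change between successive days in IVF cells for the 6 genes, with standard errors from the edgeR fit (2 libraries per day). Stars mark calls and dotted lines mark 2-fold. The highest bar is PEG10 at day 16 with 2.28 and the lowest is NNAT at day 16 with -1.34.

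The spread over days also differed among the genes. The highest over the lowest IVF day was 10.6-fold for PEG10, 8.25-fold for SGCE, 3.78-fold for NDN, 2.53-fold for NNAT, 2.47-fold for NAP1L5 and 1.82-fold for TRIM4. PEG10, SGCE, NDN and NAP1L5 were lowest at day 0, and NNAT and TRIM4 at day 16. NNAT and TRIM4 correlated with r = 0.855 over the 8 IVF libraries, and NNAT with PEG10 had r = -0.509.

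Other genes with the most similar pattern were found by Pearson correlation of log2(CPM + 1), as a description. Over all 16 libraries the correlation mostly carries the gap between the lines, by which the 6 genes were chosen, so high values among them follow from the choice. The single nearest gene of each was another of the 6. NNAT and TRIM4 had r = 0.999, and PEG10 had r = 0.993 with NDN, NAP1L5 and SGCE. Outside the group, MEST, a paternally expressed gene in mouse and human, was the third nearest for SGCE (r = 0.988). LOC102164141 was second for NDN (r = 0.992), LOC100624806, a zinc finger gene, second for NNAT and TRIM4 (r = 0.990 and 0.991), the long non-coding RNA LOC100513397 the third for NNAT (r = 0.988) and FMO4 the third for TRIM4 (r = 0.989).

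Over the 8 IVF libraries alone the nearest genes were others. PEG10 ran with LOC100739498 (r = 0.998), C1QL3 (r = 0.998) and SDC3 (r = 0.997). SGCE ran with MAPRE3 (r = 0.999), SNAPIN (r = 0.998) and ATP6V1E1 (r = 0.998). NDN was nearest to LOC110257542, UBE2O and SNAPC2 (each r = 0.996), NNAT to CAMSAP3 (r = 0.990), LOC110261296 and JPH4 (each r = 0.978), NAP1L5 to TMTC2 (r = 0.991), TEN1 (r = 0.991) and KLF4 (r = 0.985), and TRIM4 to ZXDC (r = 0.985), DAB2IP (r = 0.982) and LYL1 (r = 0.981).

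How far did the gap between the lines reach beyond each gene? The 5 nearest annotated genes on each side gave 50 different genes, of which 37 were tested for PA against IVF. At day 0, 8 were lower in PA cells, where 6.61% of all genes were called (3.96% higher and 2.64% lower), and 0 were higher by edgeR or DESeq2, with 3 higher at an unadjusted p below 0.05. At day 16, 2 were higher and 9 lower (9.08% of all genes called, 3.50% higher and 5.59% lower), at day 28, 4 and 7 (17.1%, of which 10.3% higher and 6.75% lower). At day 45 the counts were 1 and 7 (13.9%, of which 8.32% higher and 5.62% lower). Many of these genes are weakly counted, and without PA day 16 replicate 1 the calls at day 16 went from 11 to 7. The lower counts include LOC106504956, CHRNA7, LOC110259866 and LOC110259868, which had almost no PA count. They passed the filter on low counts through IVF cells alone and could hardly be called higher.

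**Figure D3:**
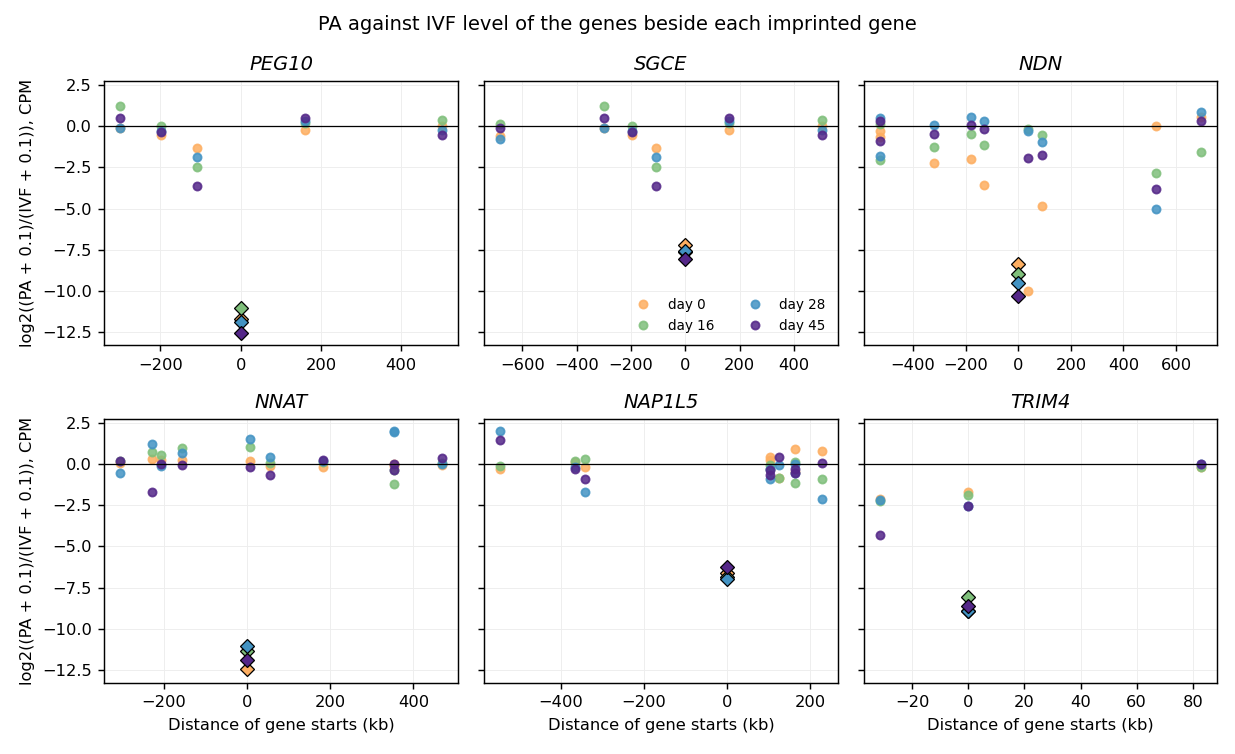
Log2 of the mean PA level over the mean IVF level, each in CPM with 0.1 added, for the tested genes beside each of the 6 (circles, coloured by day) against the distance between gene starts in kb. Diamonds at 0 are the 6 genes themselves. On this scale the diamonds lie below the circles except for MAGEL2 at day 0, beside NDN.

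Around SGCE and PEG10, the nearest coding genes were counted in both lines. CASD1 on one side had 27180 counts in IVF and 23410 in PA cells, and PPP1R9A on the other 34980 and 42368, and neither was called on any day, though CASD1 at day 0 (-0.52, adjusted p = 0.0297) and PPP1R9A at days 28 and 45 (0.32 and 0.47, adjusted p = 0.0186 and 0.00178) passed the p limit at less than 2-fold. COL1A2, a collagen gene, was higher in PA cells at day 16 only (76.4 ± 5.79 against 33.1 ± 3.89 CPM, log2 fold change 1.21 ± 0.31, adjusted p = 0.0146), a call lost without PA day 16 replicate 1 or without either IVF library of that day. Lower in PA cells was LOC106504956, a long non-coding RNA that starts 109 kb from SGCE and overlaps the end of CASD1 on the opposite strand. It had 199 counts in IVF and 2 in PA cells and was called on all 4 days (adjusted p = 0.0373, 0.0044, 0.0104 and 5e-04), with at most 1.15 ± 0.239 CPM in IVF cells, and its call at day 0 was lost when any library of that day was left out, as was that of day 28 without IVF replicate 2 or PA replicate 1. LOC106504956 passed the filter on low counts through IVF cells alone, so a higher call was hardly possible. The strand setting of the counting is not given in the sources used here.

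NDN stood in a stretch where other genes were counted in PA cells from day 16 on and NDN was not. MAGEL2, another gene of the MAGE family and paternally expressed in mouse and human, starts 37.7 kb from NDN. In PA cells its counts were 0 and 0 at day 0, then 5301 and 5097 at day 16, 5838 and 5508 at day 28, and 4501 and 5164 at day 45. In IVF cells they were 4066 and 3440, 5507 and 6241, 6934 and 7211, and 19959 and 16619. MAGEL2 was thus at least 3052-fold lower in PA cells at day 0 (adjusted p = 1.46e-10). It was 113 ± 9.9 against 125 ± 11.4 CPM at day 16 (log2 fold change -0.14 ± 0.14, adjusted p = 0.542) and 118 ± 2.85 against 142 ± 6.83 CPM at day 28 (-0.26 ± 0.14, adjusted p = 0.144). At day 45 it was lower again, 99.6 ± 4.43 against 384 ± 72.8 CPM (-1.95 ± 0.14, adjusted p = 8.65e-07).

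MKRN3, a ring finger gene known as paternally expressed in mouse and human, took the same course 88.3 kb from NDN. It went from 0.0229 ± 0.0323 CPM in PA cells at day 0, against 3.36 ± 0.254 in IVF cells (adjusted p = 1.67e-07), to 28.7 ± 0.744 against 42.4 ± 0.341 CPM at day 16 (-0.56 ± 0.17, adjusted p = 0.0298, less than 2-fold). It was also less than 2-fold lower at day 28 (-0.94 ± 0.17, adjusted p = 5.19e-04) and was called at day 45 (23.2 ± 5.64 against 77.8 ± 2.28 CPM, adjusted p = 6.4e-06). On the other side of NDN the long non-coding RNA LOC106509042 had no PA count at day 0 against 52 and 30 in IVF cells (adjusted p = 3.43e-05), and at day 28 it had 1008 and 887 against 671 and 876 (0.34 ± 0.24, adjusted p = 0.298). LOC102163334 and the pseudogene LOC110256995 were likewise at 0 in PA cells at day 0 (adjusted p = 0.00315 and 0.0012) and not called at day 28 (adjusted p = 0.244 and 0.927). At day 16 LOC106509042 and LOC110256995 were lower in PA cells (-1.16 ± 0.26 and -1.37 ± 0.41, adjusted p = 0.00686 and 0.031), and left-out libraries ended both calls. UBE3A, known in human and mouse brain as maternally expressed, was called on no day, with 34755 counts in IVF and 41413 in PA cells. At day 28 it passed the p limit at less than 2-fold, higher in PA cells (125 ± 1.02 against 87.6 ± 7.66 CPM, 0.52 ± 0.15, adjusted p = 0.0161). It did not pass the p limit at days 0, 16 and 45 (adjusted p = 0.274, 0.606 and 0.121).

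CHRNA7, a nicotinic acetylcholine receptor subunit that starts 524 kb from NDN, had no count in any PA library. In IVF cells it had 0 at day 0, 27 and 31 at day 16, 142 and 176 at day 28, and 52 and 73 at day 45. It was called lower in PA cells at days 16, 28 and 45 (adjusted p = 0.00102, 3.27e-05 and 1.61e-04), at least 18.9-fold, 102-fold and 42.1-fold. CHRNA7 too passed the filter on low counts through IVF cells alone, so no higher call was possible. OTUD7A, farther out on the same side, was lower in PA cells at day 16 only (2.19 ± 0.0389 against 6.60 ± 0.0872 CPM, -1.59 ± 0.26, adjusted p = 6.5e-04). LOC110261525, a pseudogene that overlaps UBE3A, was lower at days 16 and 28 (-2.71 ± 0.68 and -2.06 ± 0.57, adjusted p = 0.0114 and 0.0104), and left-out libraries ended both calls.

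The host genes of NNAT and NAP1L5 were counted in both lines. BLCAP, around NNAT, had 71.6 ± 0.907 CPM in PA and 63.6 ± 1.75 CPM in IVF cells at day 0 (log2 fold change 0.17 ± 0.10, adjusted p = 0.289). It was higher in PA cells at day 16 (271 ± 30.1 against 134 ± 1.09 CPM, 1.01 ± 0.10, adjusted p = 1.26e-05) and at day 28 (561 ± 41.9 against 199 ± 19.4 CPM, 1.49 ± 0.10, adjusted p = 2.67e-07). The day 16 change stood at 2-fold and went just below it with other scalings (0.94 with total counts). At day 45 BLCAP was 227 ± 5.01 and 260 ± 15.0 CPM (-0.19 ± 0.10, adjusted p = 0.144). The summed neuronal markers were above those of IVF cells at day 28 and below them at day 16, and their part in the BLCAP values was not tested.

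HERC3, around NAP1L5, was called on no day, with 51.5 ± 1.78 against 39.0 ± 0.351 CPM at day 0 and 49.3 ± 6.07 against 77.1 ± 2.24 CPM at day 45 (-0.65 ± 0.11, adjusted p = 3.85e-04). Farther out, GPRIN3 was higher in PA cells at day 28 (1.99 ± 0.21, adjusted p = 6.61e-06) and day 45 (1.49 ± 0.21, adjusted p = 1.18e-04), FAM13A was lower at day 28 (-1.69 ± 0.16, adjusted p = 2.45e-06), and HERC5 was lower at day 28 (-2.12 ± 0.13, adjusted p = 1.06e-07). Near NNAT, VSTM2L was lower in PA cells at day 16 (-1.26 ± 0.22, adjusted p = 9.85e-04) and higher at day 28 (1.92 ± 0.20, adjusted p = 7.28e-06). The weakly counted LOC102161460 was higher at day 28 (adjusted p = 0.0313) and GHRH lower at day 45 (adjusted p = 0.0436, 21 counts against 0), and both calls were lost without single libraries.

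Beside TRIM4, genes on both sides were at 0 in PA cells. Its partner LOC110259868 had 138 IVF counts and none in PA cells, and the olfactory receptor-like LOC110259866 on the other side had 275 and none. Both were called lower in PA cells on all 4 days, with adjusted p = 0.0257, 0.0146, 0.00257 and 0.00308 for the first and 0.00621, 0.00337, 0.00155 and 1.56e-04 for the second, while the calls of the first at days 0 and 16 were lost without single libraries. Their IVF levels were low, at most 0.491 ± 0.146 and 1.85 ± 0.491 CPM. With no PA count, both passed the filter on low counts through IVF cells alone, so no higher call was possible.

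The genes within 250 kb of the TRIM4 start were then read out, a step added after these values were seen. From LOC102164141 to AZGP1, chr3:7666792-7874857, lie 14 annotated genes, mostly olfactory and vomeronasal receptor-like genes, and 13 of them had counts in IVF cells. In the 8 PA libraries 13 of the 14 had no count, and the other, LOC102164141 at the edge, had 19 counts in 3 libraries against 2691 in IVF cells. Without TRIM4 the stretch held 3177 counts in IVF cells and 19 in PA cells, most of the former from LOC102164141. Several of the receptor-like genes had under 15 counts over the 8 IVF libraries, so a difference between the lines could not be told for them gene by gene at this depth. GJC3 had no count in either line. Among the genes without a PA count, those with the most IVF counts were TRIM4, LOC110259866 and LOC110259868, with 14839, 275 and 138. Outside the stretch genes were counted in both lines at more or less equal levels. LOC106509687 on one side had 308 counts in IVF and 250 in PA cells, and ZKSCAN1 on the other had 87235 and 84079 and was called on no day. Less equal were LOC110259865 with 613 and 203, LOC100514951 with 50 and 4, and LOC110259869, the first gene past AZGP1, with 17 and 39.

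**Figure D4:**
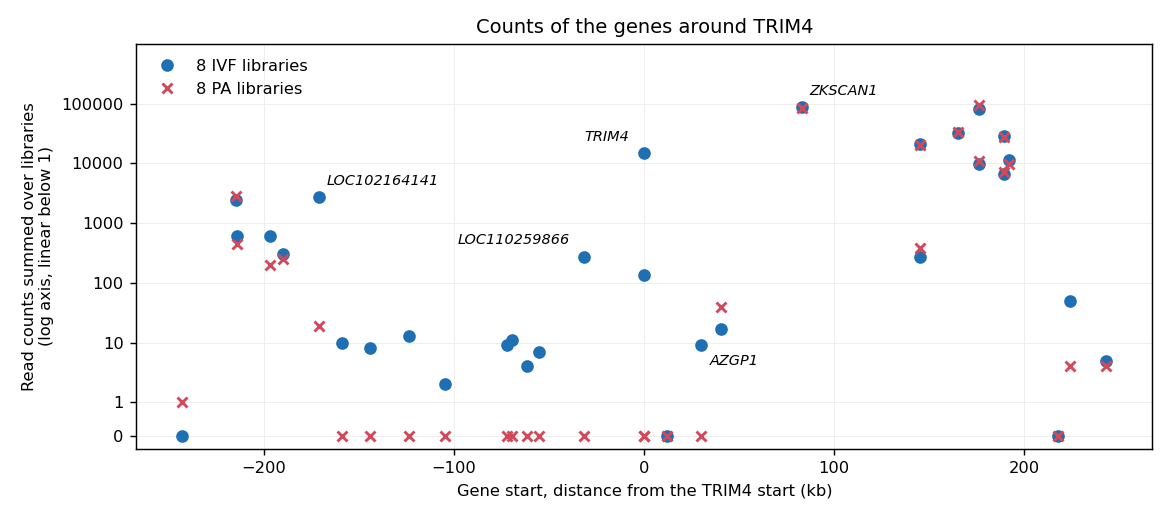
Read counts of the genes within 250 kb of the TRIM4 start, summed over the 8 IVF libraries (blue) and the 8 PA libraries (red crosses), against distance in kb, on an axis that is logarithmic above 1 and linear below. PA crosses lie at 0 between LOC102164141 (19 counts) and AZGP1, while ZKSCAN1 has 84079 against 87235 in IVF cells.

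Few genes separated the lines as these did. Of 18528 tested genes, 19 had at least 1 CPM in each IVF group and a PA level below 10% of the IVF level on all 4 days, or 0.103%, and the 6 were among them as their choice required. In the opposite direction, with IVF below 10% of PA, there were 14 genes, none of them in the lists of imprinted genes. The other 13 of the 19 held DIRAS3, MEST and PEG3, which are paternally expressed in human, and LOC110261077, which lies next to PEG3 at higher coordinates in this annotation. They also held FMO4 and LOC100624806, without a count in PA cells, and LOC102164141 of the TRIM4 stretch.

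The remaining members of the 19 were TRIM21, the zinc finger-like LOC100520903, the long non-coding RNAs LOC102163798 and LOC100513397, LOC100523789 and LOC100154105. Just inside the limit stood LOC100154105 at 8.61% and MEST at 6.82% on their highest day. Just outside it stood an entry labelled LDHB at 11.3% and DLK1, a paternally expressed Notch ligand, at 12.3%. The LDHB entry, chr2:12988754-12990033, covers almost the same bases as LOC407246 (14.4%), and how reads were shared between them is not known. The 6 genes had at most 0.693%. With a limit of 5% there were 14 genes and with 20% there were 27, each with all 6.

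**Figure D5:**
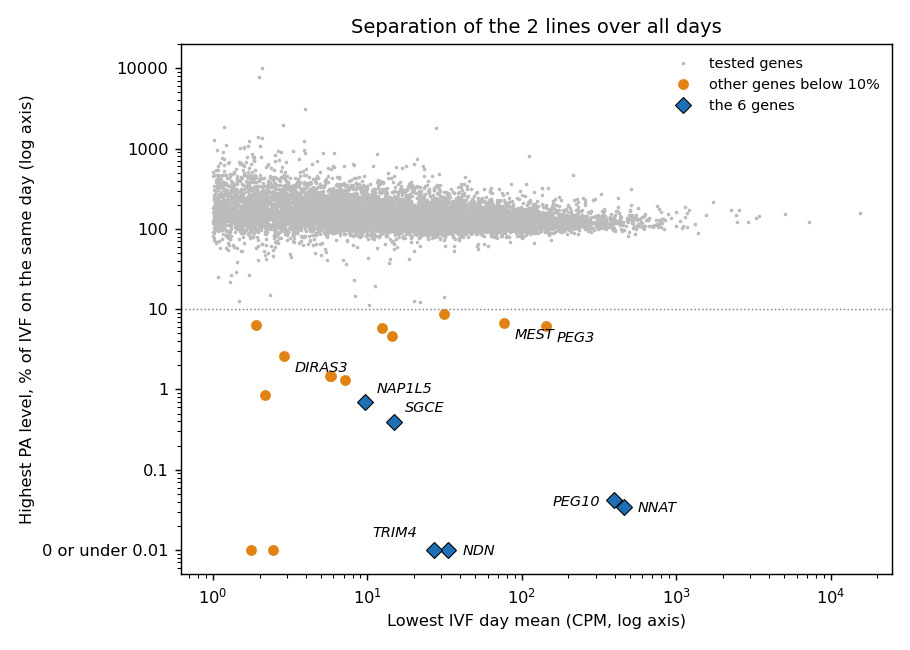
Highest PA level on any day, as a percentage of the IVF level on the same day, against the lowest IVF day mean in CPM, both on log axes, for the 12481 tested genes with at least 1 CPM in each IVF group. Diamonds are the 6 genes and orange circles the 13 other genes below the 10% line, and values of 0 or under 0.01 are drawn at 0.01. PEG10 and NNAT lie at 0.0417% and 0.0348%, far below PEG3 and MEST.

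The list of other genes known as paternally expressed held genes lower and genes higher in PA cells. Among 19 tested, 8, 6, 6 and 9 were lower and 1, 2, 4 and 1 higher at days 0, 16, 28 and 45. The list also holds MKRN3, a neighbour of NDN, so its counts and those of the neighbours are not independent. Of all genes, 2.64%, 5.59%, 6.75% and 5.62% were lower and 3.96%, 3.50%, 10.3% and 8.32% higher on these days. Their median log2 fold changes were -0.19, -0.56, -0.14 and -0.93, beside 0.01, 0.01, 0.00 and 0.03 over all genes. PEG3, a zinc finger gene, had no PA count at day 0 (at least 4357-fold lower than 144 ± 17.2 CPM, adjusted p = 1.06e-09). It was then found at 5.06 ± 1.55, 31.8 ± 2.17 and 92.2 ± 29.5 CPM in PA cells against 448 ± 21.7, 1589 ± 58.0 and 1479 ± 123 CPM (adjusted p = 4.56e-09, 6.57e-09 and 9.19e-08). Unlike the 6 genes, PEG3 thus reached 6.23% of the IVF level.

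DIRAS3, a small GTPase gene, was 3.93 ± 2.38 against 222 ± 10.2 CPM at day 16 (log2 fold change -5.81 ± 0.29, adjusted p = 1.73e-08) and lower on each other day. MEST, of the alpha/beta hydrolase fold family, was 5.19 ± 0.0386 against 76.1 ± 8.94 CPM at day 0 (-3.87 ± 0.28, adjusted p = 5.66e-07) and lower on each later day. PLAGL1, a zinc finger gene, was lower by 1.40 ± 0.16 on the log2 scale at day 0 (5.24 ± 1.19 against 13.8 ± 1.88 CPM, adjusted p = 4.42e-05) and by 5.79 ± 0.18 at day 45 (1.91 ± 0.191 against 106 ± 15.1 CPM, adjusted p = 1.49e-10).

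Genes known as maternally expressed were called in both directions. Among 20 tested, 3, 0, 4 and 2 were higher and 2, 0, 1 and 1 lower in PA cells at days 0, 16, 28 and 45, where 6.61%, 9.08%, 17.1% and 13.9% of all genes were called, and the 5 calls of day 0 became 3 when any library of that day was left out. At day 16, where edgeR and DESeq2 both called 0, 5 genes had an unadjusted p below 0.05. MEG3, a long non-coding RNA, was higher in PA cells at day 0 (52.3 ± 1.22 against 17.7 ± 1.16 CPM, 1.56 ± 0.16, adjusted p = 1.39e-05), day 28 (882 ± 35.1 against 147 ± 18.3 CPM, 2.59 ± 0.16, adjusted p = 6.72e-08) and day 45 (1.09 ± 0.15, adjusted p = 8.93e-05), the last lost without IVF day 45 replicate 1. ASB4 was higher at day 0 (2.46 ± 0.42, adjusted p = 0.00125) and lower at day 28 (-1.53 ± 0.31, adjusted p = 0.0013). PON2, a paraoxonase gene, was lower at day 0 (-1.15 ± 0.23, adjusted p = 0.00347), CDKN1C, a cyclin-dependent kinase inhibitor, lower at day 45 (-2.08 ± 0.28, adjusted p = 7.91e-05), and ZNF597 higher at day 45 (1.40 ± 0.26, adjusted p = 8e-04), a call that fell under 2-fold without PA day 45 replicate 2 (0.78).

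Relatives and partners of the 6 genes were mostly not called between the lines. Of 74 such genes tested, 3, 4, 13 and 14 were higher and 3, 4, 5 and 5 lower at days 0, 16, 28 and 45. Those called were 8.11%, 10.8%, 24.3% and 25.7% of the 74, beside 6.61%, 9.08%, 17.1% and 13.9% of all genes. Among 13 gag genes derived from retrotransposons, the family of PEG10, the median log2 fold change at day 28 was 1.04 against 0.00 over all genes. At that day 7 of the 13 were higher, where 10.3% of all genes were higher. These included ZCCHC12 (166 ± 3.17 against 36.1 ± 5.72 CPM, 2.20 ± 0.26, adjusted p = 2e-05), RTL9 (1.89 ± 0.26, adjusted p = 6.71e-05), PNMA2 (1.43 ± 0.20, adjusted p = 6.43e-05) and PNMA1 (1.04 ± 0.13, adjusted p = 2.2e-05). The last 2 are known as neuronal antigens, and PNMA1 fell under 2-fold without PA day 28 replicate 2. RTL9 had been lower at day 16 (-1.56 ± 0.28, adjusted p = 0.00118) and RTL5 was lower at day 0 (-1.25 ± 0.12, adjusted p = 8.18e-06).

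Among 15 sarcoglycans and members of the dystrophin complex, the partners of SGCE, 2 were higher at day 16 and 2 at day 45. Lower were 1, 1 and 3 at days 0, 28 and 45. Of all genes, 3.50% and 8.32% were higher at days 16 and 45, and 2.64%, 6.75% and 5.62% lower at days 0, 28 and 45. The 7 skeletal and smooth muscle markers, of which MYOD1 was at 0 in every library and MYOG in every PA library, summed to 187 to 197 CPM in PA and 39.4 to 63.3 CPM in IVF cells at day 0, 96.3 to 99.4 and 49.8 to 67.1 CPM at day 16, 8.02 to 8.99 and 13.1 to 28.6 CPM at day 28, and 75.01 to 100.4 and 42.1 to 45.4 CPM at day 45. Of the 5 tested, 4, 3, 1 and 3 were higher in PA cells on the 4 days and 2 were lower at day 28. Of all genes, 3.96%, 3.50%, 10.3% and 8.32% were higher on the 4 days and 6.75% lower at day 28. The part of these markers in the values of this group was not tested. DTNA, dystrobrevin alpha, was lower at day 0 (1.16 ± 0.0599 against 6.02 ± 0.784 CPM, -2.37 ± 0.15, adjusted p = 1.34e-07). SSPN, sarcospan, was higher at day 16 (1.33 ± 0.26, adjusted p = 0.00249) and lower at day 45 (-1.41 ± 0.26, adjusted p = 7.99e-04). SGCB, beta-sarcoglycan, was higher at day 45 (1.61 ± 0.30, adjusted p = 9.1e-04), and DMD, dystrophin, was higher at day 45 (1.07 ± 0.15, adjusted p = 1.2e-04), a call that fell under 2-fold without PA day 45 replicate 1.

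Of 5 MAGE genes besides MAGEL2 and NDN, 1 was called on any day: MAGEE2, higher at day 28 (11.5 ± 0.220 against 3.72 ± 0.478 CPM, 1.63 ± 0.20, adjusted p = 2.6e-05). At that day 10.3% of all genes were higher. Of 4 calcium pump genes and small pump regulators, to which neuronatin is related, ATP2A3 was higher at day 0 (1.11 ± 0.22, adjusted p = 0.00428) and ATP2A1 lower at day 28 (-1.13 ± 0.40, adjusted p = 0.0391). The calls of both were lost without single libraries. Of all genes, 3.96% were higher at day 0 and 6.75% lower at day 28. Of 12 nucleosome assembly proteins and histone chaperones, 1 was higher at day 28 and 3 at day 45. Of all genes, 10.3% and 8.32% were higher on these days. TSPYL4 was higher at day 28 (470 ± 16.3 against 220 ± 23.1 CPM, 1.09 ± 0.14, adjusted p = 2.96e-05), just under 2-fold without IVF day 28 replicate 1, and ASF1B, CHAF1A and CHAF1B, which serve histone deposition at replication, were higher at day 45 (1.99 ± 0.34, 1.33 ± 0.20 and 1.31 ± 0.13, adjusted p = 5.01e-04, 1.63e-04 and 6.57e-06), where CHAF1A fell under 2-fold without PA day 45 replicate 1. Summed cell cycle markers were 221 to 485 CPM in PA cells and 139 to 141 CPM in IVF cells at that day, and their part in these values was not tested.

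Of 25 TRIM ligases and genes of RIG-I signalling, 1, 4 and 6 were higher at days 0, 28 and 45. Over the 4 days 1, 3, 3 and 2 were lower. Of all genes, 3.96%, 10.3% and 8.32% were higher and 2.64%, 5.59%, 6.75% and 5.62% lower on the same days. TRIM25, which like TRIM4 acts on RIG-I in human cells, was higher in PA cells at day 0 (12.8 ± 0.460 against 0.373 ± 0.182 CPM, 5.08 ± 0.35, adjusted p = 3.66e-07), day 28 (5.39 ± 0.131 against 0.141 ± 0.00286 CPM, 5.23 ± 0.39, adjusted p = 4.39e-07) and day 45 (6.07 ± 0.36, adjusted p = 7.25e-08). It was 2.39 ± 0.104 against 1.99 ± 0.0697 CPM at day 16 (adjusted p = 0.585). DDX58, which encodes RIG-I, was higher at day 45 (53.4 ± 4.15 against 17.5 ± 2.90 CPM, 1.61 ± 0.16, adjusted p = 6.07e-06), TRIM46 higher at day 28 (1.40 ± 0.12, adjusted p = 1.08e-06), TRIM56 lower at day 28 (-1.34 ± 0.09, adjusted p = 2.81e-07) and TRIM8 lower at day 45 (-1.51 ± 0.15, adjusted p = 6.4e-06).

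The starts of the 6 genes were compared by their letters, which the choice had not used. In the 300 bases from 250 before to 50 after the annotated start, NAP1L5 had 40 CpG, TRIM4 36, NDN 31, PEG10 and SGCE 21 each and NNAT 13, against a median of 11 and quartiles of 4 and 24 over 28185 such windows. NAP1L5 stood at percentile 93.3, TRIM4 at 90.2, NDN at 84.9, PEG10 and SGCE at 69.5 each and NNAT at 54.4 of all windows. These windows cover genes of the table whether counted or not, while the 6 were chosen as counted in IVF cells. A comparison with counted genes only was not made. PEG10 and SGCE share most of their windows. The hexamer TGCCGC, to which ZFP57 binds when methylated in mouse, was searched on both strands, and NNAT and NAP1L5 held it, as did 15.9% of all windows. For NDN the model starts at the coding sequence, so its window need not hold the promoter, and no match says only that the letters are not in the window.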

How the data were processed

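Poly-A RNA of 16 porcine samples, 2 for each of 8 groups (line and day, from the sample titles), was sequenced from stranded libraries. The submitters' processing notes and methods name Trimmomatic 0.38 for trimming, HISAT2 2.1.0 for alignment to Sscrofa11.1, SAMtools 1.9 and, for quantification, StringTie 2.1.3b. Read counts, as deposited by the authors, are unscaled integers for every gene in every library. The deposited TPM values, in which the authors corrected for length and depth, served for the order of genes and 1 alternative. FPKM was also deposited by the authors and was left aside. Whether counting used the strand is not given in the sources used here.

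Counts were analysed in R 4.3.3 with edgeR 4.0.16. The filter filterByExpr kept 18528 of 28232 genes. TMM-scaled counts of all 16 libraries entered 1 quasi-likelihood model of 8 group means (8 residual degrees of freedom). Calls needed a Benjamini-Hochberg adjusted p below 0.05 over all genes tested and at least 2-fold. The standard error is the log2 fold change divided by the square root of F. Correlations used log2(CPM + 1). Where a group had 0 counts, the fold is a bound from 3 counts over the group, since the fitted value depends on the prior count. With 39247693 to 52165867 counts per library, 3 counts in 1 library are 0.0594 to 0.0815 CPM. The models were tested on simulated counts.

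The 6 genes and the lists were chosen with earlier results of these data known. Named are the 6 genes, their tested neighbours (5 on each side), of each list at most 5 genes with the smallest adjusted p, and for each of the 6 the 3 most correlated genes over 16 and over 8 IVF libraries. UBE3A, CASD1 and other uncalled neighbours are named as tested neighbours, and genes of the TRIM4 stretch and of the separation count were named after their values were seen. Of the genes in the table, 28208 matched RefSeq on the same build, from which sequences and positions were read. Alternatives were RLE, upper quartile and total count scaling, other filters, no fold minimum, fits on fewer libraries, a replicate block, leaving out each library, DESeq2 1.42.0, DESeq2 with the criterion of the study, and TPM. Figures were made with matplotlib 3.10.9 (Python 3.11.15). A result for 1 gene of the lists is not reported here.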

Additional observations from a re-analysis of the deposited data

Results flagged for a closer look

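The difference between PA and IVF cells itself changed with the day for 12 of the 37 tested neighbours, by an interaction term in the edgeR fit (adjusted over all genes tested). A gene was counted if called on any later day. The share of all genes called by this term was not computed, so whether 12 is many cannot be told. Values are the log2 difference on the later day minus that of day 0, with the day of the smallest adjusted p. Next to NDN they were 15.05 for MAGEL2 at day 16 (adjusted p = 1.24e-09), 6.15 for MKRN3 (5.43e-06), 9.02 for LOC106509042 (3.22e-05), 7.38 for LOC102163334 (adjusted p = 0.00126) and 7.14 for LOC110256995 (adjusted p = 0.00109), all at day 28 except MAGEL2. These genes had 0 to 2 counts in PA cells at day 0, so the size of the fitted value depends on the prior count and is no bound. OTUD7A had -2.35 at day 16 (adjusted p = 0.0152), a call lost without IVF day 0 replicate 1 or PA day 0 replicate 2.

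Next to NNAT, BLCAP had 1.32 ± 0.14 (SE, adjusted p = 2.55e-05) and VSTM2L 2.06 ± 0.33 (adjusted p = 3.63e-04) at day 28. Next to NAP1L5, GPRIN3 had 2.28 ± 0.29 (adjusted p = 7.87e-05), FAM13A -1.51 ± 0.22 (adjusted p = 1.87e-04) and HERC5 -2.89 ± 0.18 (adjusted p = 6.39e-07) at day 28, and HERC3 had -1.05 ± 0.15 at day 45 (adjusted p = 2.26e-04), under 2-fold with total counts (-0.92) and without PA day 0 replicate 1 or PA day 45 replicate 2.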

How the results depend on the processing

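No called result changed its direction under any alternative run. Of the alternative values for counts of called genes and other summaries, 263 stayed within 1.5 times the reported value or its spread and 38 did not, and of those for single log2 changes 1624 kept their side of the limits, 66 lost and 10 gained it. Another 6, the uncalled changes of NNAT and PEG10 from day 28 to day 45 that lie near 0, changed sign. With no fold minimum the calls among the 6 genes were 5, 5, 3 and 5 for day 16 against 0, 28 against 16, 45 against 28 and 45 against 0, those of neighbours were 19 at day 28 and 14 at day 45, those of maternally expressed genes 1, 10 and 5 at days 16, 28 and 45, and those of family and partner genes 10, 15, 44 and 39. A filter of 1 CPM in 4 libraries left 5, 7 and 4 neighbours called at days 0, 28 and 45, since weakly counted genes were no longer tested. DESeq2 called 1 of the 6 genes at day 28 against day 16. The study's criterion (genes above 0 in all 16 libraries, unadjusted p) tested none of the 6, each of which was at 0 in a PA library, and gave 0, 3, 5 and 1 neighbours, 4, 4, 6 and 3 paternally expressed genes, and at day 16 1 maternally expressed and 5 family genes.

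Leaving out each library in turn gave 0 to 2 calls among the 6 genes at day 28 against day 16, 0 without IVF day 16 replicate 2 and 1 without IVF day 28 replicate 2. Neighbours gave 7 to 9 at day 16. Maternally expressed genes gave 3 at day 0, 0 to 2 at day 16, 3 to 6 at day 28 (3 without IVF day 28 replicate 2) and 2 to 5 at day 45 (5 without PA day 45 replicate 1). Replicate numbers name no shared culture, and same-numbered deviations correlated with -0.05 to 0.28. With the number as a replicate block, 3 of the 6 genes were called at day 16 against day 0 and 2 at day 28 against day 16, and no count moved by over 1.5 times. Genes with few counts, such as the receptor-like genes by TRIM4, are limited by depth.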
